A study of Mus musculus with 4 samples.

Results

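The RNA of 10 genes of heme breakdown and iron handling was followed in bone marrow derived macrophages (BMMs) that were driven toward osteoclasts with RANKL, with or without dimethyl itaconate (DI). The genes were chosen by name and make up 10 of the 34745 mouse genes in the deposited table. They are Slc48a1, Hmox1, Blvra, Blvrb, Ftl1, Fth1, Slc40a1, Tfrc, Slc11a2 and Ireb2. Macrophages take up old red cells and free the iron in their heme. Slc48a1 moves heme out of the phagolysosome, Hmox1 opens the heme ring to biliverdin, iron and carbon monoxide, and Blvra and Blvrb are biliverdin reductases. The iron is stored in ferritin, built from the light chain (Ftl1) and the heavy chain (Fth1), or leaves the cell through ferroportin (Slc40a1). Tfrc, the transferrin receptor, brings iron in, Slc11a2 carries it across the endosomal membrane, and Ireb2 is a sensor that binds iron-responsive elements in messenger RNAs.

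RNA was measured in 2 libraries of RANKL+DI and 2 of RANKL+DMSO, the vehicle. Every library came from wild-type BMMs of 8-week-old male C57BL/6 mice, which were kept without serum for 12 h and then given RANKL at 100 ng/mL for 24 h. The sample labels state DI at 20 mM, and the methods text states it at 20 μM. No culture without RANKL was sequenced among these libraries, and nothing in the labels says whether the replicates were separate mice or separate dishes, so p-values measure the spread between these libraries only.

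Library totals ran from 16085692 to 19403480 counts. Levels are given as CPM, counts scaled to a common library total, on library sizes scaled by TMM, which corrects for a few genes taking a larger share of some libraries. Of the 12590 genes that passed the filter on low counts, 1868 (14.8%) passed the quasi-likelihood test of edgeR (adjusted p below 0.05), 899 (7.14%) higher and 969 (7.7%) lower with DI. Macrophage markers were present throughout. Of the 8, 5 rose and 2 fell (3 and 2 when scaled by library size only), and their summed level was 28443 to 29258 CPM with DI against 22261 to 23125 CPM with DMSO, most of it Lyz2. Among 9 osteoclast markers, 8 were tested, 5 fell (Acp5, Ctsk, Mmp9, Ocstamp and Nfatc1) and 2 rose (Atp6v0d2 and Itgb3), with a summed level of 714 to 730 CPM against 741 to 764 CPM. Of 12 erythroid markers, which would mark red cell precursors rich in heme enzymes, 8 had no count in any library, the globin genes Hbb-bs, Hbb-bt, Hba-a1 and Hba-a2 among them. Their sum lay between 0.160 and 0.300 CPM. Among 6 B cell markers only Ighm was tested, and it was higher with DI, with a list sum of 21.3 to 23.5 CPM against 10.7 to 11.8 CPM, while Pax5 had no count. None of the 4 tested neutrophil, 2 T and NK cell and 5 stromal markers passed by edgeR's quasi-likelihood test, with 1, 1 and 0 at an unadjusted p under 0.05 and 0 by DESeq2, edgeR's exact test and limma-voom. In bulk RNA, fewer cells of a type and less RNA per cell cannot be told apart, and the part of these marker shifts in the results below was not tested.

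Among the 10 genes, most of those for heme transport and breakdown rose with DI, as did those for storing and exporting iron. The gene for taking up transferrin iron fell. All 10 genes passed the filter, the lowest having 1170 counts in a library. An adjusted p under 0.05 was reached by 7 of them (against 14.8% of all tested genes). Slc48a1, Hmox1, Blvrb, Ftl1, Fth1 and Slc40a1 were higher with DI, and Tfrc was lower. Blvra, Slc11a2 and Ireb2 did not pass. The median log2 fold change of the 10 genes was 0.61, beside 0.0012 for all tested genes. In each of the 10 genes the libraries of the groups were fully separate, as they were in 58.6% of the tested genes.

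**Figure D1:**
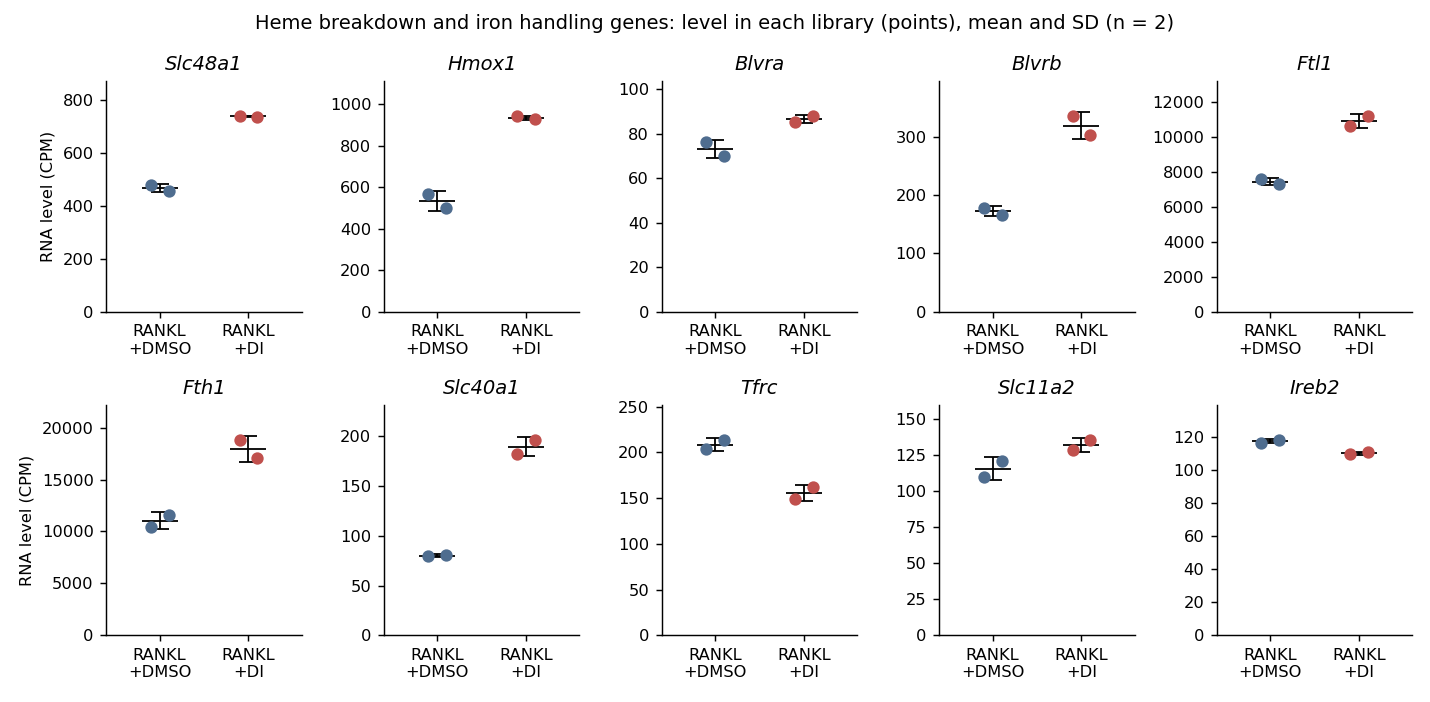
Level of each gene in CPM on a linear axis from 0, with 1 point per library (blue, RANKL+DMSO; red, RANKL+DI) and the mean and SD of each group in black (n = 2). Both red points lie above both blue points in 8 panels and below them for Tfrc and Ireb2, with the widest relative gap for Slc40a1.

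Heme entering the cytosol from the phagolysosome passes through the transporter encoded by Slc48a1 (ENSMUSG00000081534), on chromosome 15 from 97784355 to 97792692. It stood at 740 and 738 CPM in the DI libraries and at 480 and 458 CPM with DMSO. The DI libraries differed from each other by far less than they differed from the DMSO libraries. Slc48a1 thus rose by 0.66 on the log2 scale (standard error 0.038, adjusted p = 5.85e-04, edgeR). Exons of Hdac7 on the opposite strand cover 1.05% of its exons, and Hdac7 had 317 counts per library on average against 10779 for Slc48a1.

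Hmox1 (ENSMUSG00000005413), the inducible heme oxygenase, lies on chromosome 8 from 75093591 to 75100596. Its level was 943 and 929 CPM with DI and 566 and 500 CPM with DMSO. The spread was wider in the DMSO libraries, and the lower DI library was still well above the higher DMSO library. Hmox1 rose by 0.81 on the log2 scale (standard error 0.061, adjusted p = 0.00135, edgeR), a fold of 1.75. For Hmox2, the constitutive heme oxygenase, the DI libraries held 1260 and 2102 counts and the DMSO libraries 1304 and 1210, a log2 fold change of 0.38 that did not pass (95% interval -0.074 to 0.83, adjusted p = 0.235, edgeR). Without DI replicate 1 it was 0.65 and passed (adjusted p = 0.00246, edgeR).

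The biliverdin reductases stood apart from each other. Blvrb (ENSMUSG00000040466), which also reduces flavins, lies on chromosome 7 from 27447978 to 27466144. It went from 179 and 166 CPM with DMSO to 336 and 303 CPM with DI. The increase was 0.89 on the log2 scale (standard error 0.064, adjusted p = 0.00115, edgeR). Blvra (ENSMUSG00000001999), the reductase of the main biliverdin isomer made by heme oxygenase, lies on chromosome 2 from 127070665 to 127097084. It had 85.4 and 87.9 CPM with DI and 76.2 and 70.2 CPM with DMSO. The groups lay close together, with a log2 fold change of 0.24 (95% interval 0.089 to 0.40) and an adjusted p of 0.0542 (edgeR), just over the threshold. The intervals of the log2 fold changes of Blvrb (0.73 to 1.05) and Blvra lay apart, and the difference between them was not itself tested.

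Ferritin RNA was by far the most abundant of the set. Fth1 (ENSMUSG00000024661), on chromosome 19 from 9982703 to 9985092, encodes the heavy chain, which oxidizes iron for storage. It was measured at 18811 and 17064 CPM with DI and at 10457 and 11626 CPM with DMSO. The replicates differed by more CPM than those of any other of the 10 genes, and the groups were nevertheless separate. Fth1 rose by 0.70 on the log2 scale (standard error 0.066, adjusted p = 0.00248, edgeR). Of all counts in a library, Fth1 took 1.81% and 1.65% with DI and 1.08% and 1.20% with DMSO. By number of counts it ranked 2 and 3 among all genes in the DI libraries and 5 and 4 in the DMSO libraries.

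Ftl1 (ENSMUSG00000050708), the light chain, which helps the mineral core to form, lies on chromosome 7 from 45457944 to 45459884. Its level was 10626 and 11185 CPM with DI and 7577 and 7292 CPM with DMSO. It rose by 0.55 on the log2 scale (standard error 0.038, adjusted p = 9.34e-04, edgeR). Ftl1 and Fth1 together made up 90.9% to 91.7% of the counts of the 10 genes in every library. The whole set took 3.09% and 2.99% of the counts with DI and 2.06% and 2.14% with DMSO, while the 8 other genes took 0.257% and 0.257% against 0.188% and 0.179%.

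The Ftl1 count has a known uncertainty. A copy listed as Gm10116, which GENCODE M21 names Ftl1-ps1, matches 94.0% of the Ftl1 transcript at up to 99.6% identity. It held 38909 and 42336 counts with DI and 29302 and 26568 with DMSO. Those are 16.8% to 17.9% of the counts of gene and copy together in each library, so the split hardly differed between the groups. The copy itself was higher with DI by 0.51 on the log2 scale (standard error 0.030, adjusted p = 5.85e-04, edgeR). A further copy, Ftl2-ps, held 10 to 13 counts in a library. The search also found copies that are not among the deposited genes. They matched 35.5% to 57.0% of the Ftl1 transcript, with a best identity of 96.0% to 99.4%. A locus not in the table, Gm10252 on the opposite strand, covers 26.5% of the exons of Ftl1, and strand use in counting is not stated. For the other 9 genes the search found no copy, and Fth-ps2, named as a copy of Fth1, had 2 counts in every library.

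Slc40a1 (ENSMUSG00000025993) encodes ferroportin, the iron exporter, and lies on chromosome 1 from 45908068 to 45926523. It had the largest fold change of the 10 genes. The libraries held 3134 and 3680 counts with DI and 1476 and 1352 with DMSO. This corresponds to 183 and 196 CPM against 79.2 and 81.2 CPM. The replicates of each group lay close together, far from the other group. Slc40a1 rose by 1.24 on the log2 scale (standard error 0.053, 95% interval 1.11 to 1.37, adjusted p = 2.77e-04, edgeR), a fold of 2.36. By p-value it ranked 18 among the 12590 tested genes.

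On the side of uptake, Tfrc (ENSMUSG00000022797), on chromosome 16 from 32608920 to 32632794, was the member that fell. It stood at 150 and 162 CPM with DI and at 204 and 214 CPM with DMSO. It decreased by 0.42 on the log2 scale (standard error 0.055, adjusted p = 0.00659, edgeR), a fold of 0.747. Slc11a2 (ENSMUSG00000023030), the divalent metal transporter that passes iron from the endosome to the cytosol, lies on chromosome 15 from 100387898 to 100425072. It had 129 and 136 CPM with DI and 110 and 121 CPM with DMSO. Its log2 fold change of 0.19 did not pass (95% interval 0.041 to 0.35, adjusted p = 0.0967, edgeR). Gm5475 on the opposite strand, which covers 6.33% of its exons, had 2.5 counts on average against 2207.

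Ireb2 (ENSMUSG00000032293), on chromosome 9 from 54863755 to 54912534, encodes the sensor called iron regulatory protein 2, which is controlled mainly through its protein stability. Its RNA was at 110 and 111 CPM with DI and at 117 and 119 CPM with DMSO. Its log2 fold change was -0.091 (95% interval -0.20 to 0.017, adjusted p = 0.233, edgeR). When libraries were scaled by their size only, it was -0.19 and passed (adjusted p = 0.0316, edgeR), at a scaling that also put the median of all tested genes at -0.10.

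**Figure D2:**
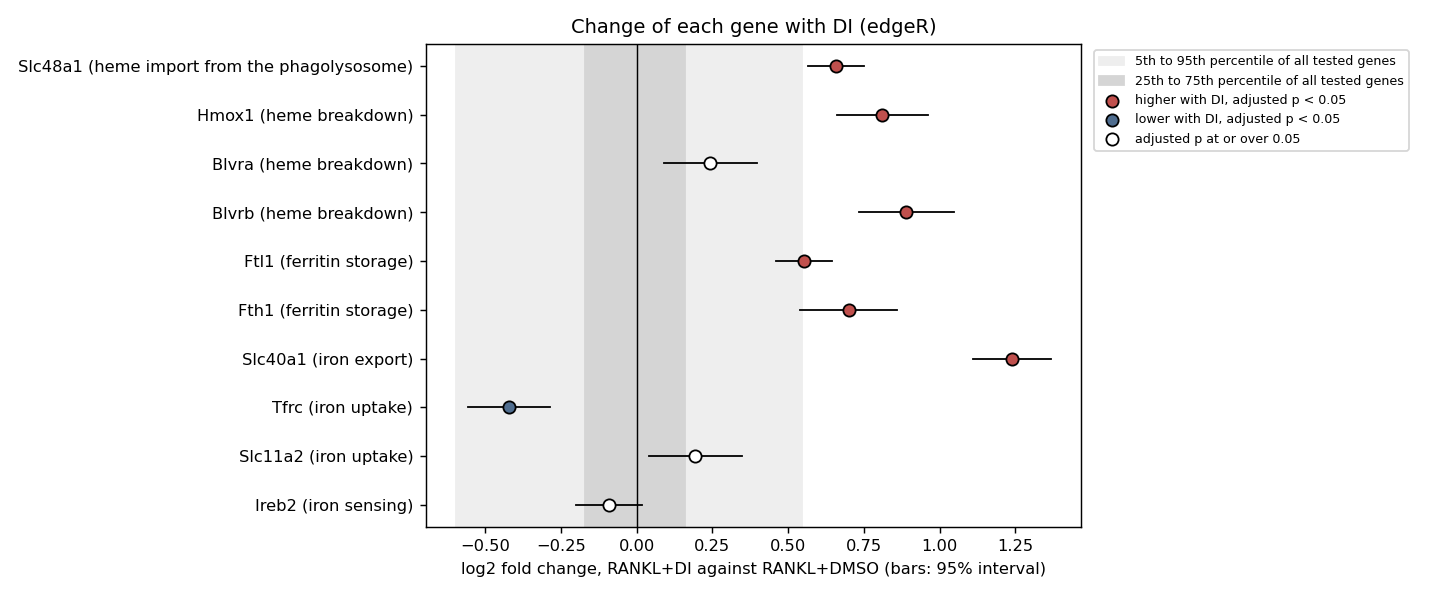
Log2 fold change of each gene (RANKL+DI against RANKL+DMSO, points) with its 95% interval (bars), ordered by role, over the 25th to 75th and 5th to 95th percentiles of all 12590 tested genes (grey bands). Slc40a1 stands farthest to the right at 1.24, Tfrc is the filled point left of 0 at -0.42, and Blvra, Slc11a2 and Ireb2 are the open points that did not pass.

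Several of these messages carry iron-responsive elements, short hairpins bound by iron regulatory proteins when iron is scarce. In a 5' untranslated region the bound protein blocks translation, and in a 3' untranslated region it protects the message from decay. The search below was made after the values of the 10 genes were seen. Whether these elements play a part in the RNA changes was not tested. The sequences shown are the matches in these genes. Coding transcripts of GENCODE M21 (GRCm38) were searched for a C, 5 further bases, the loop CAGTGN and 5 bases that pair with the earlier 5 (at most 1 G-T pair). Each line gives 29 bases of the message, 5' to 3', with the loop in capitals.
Fth1, 5' untranslated region, chr19:9982732-9982760, plus strand: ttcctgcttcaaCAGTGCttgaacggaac
Ftl1, 5' untranslated region, chr7:45459779-45459807, minus strand: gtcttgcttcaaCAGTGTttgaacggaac
Slc40a1, 5' untranslated region, chr1:45925465-45925493, minus strand: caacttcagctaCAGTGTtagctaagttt
Tfrc, 3' untranslated region, chr16:32631219-32631247, plus strand: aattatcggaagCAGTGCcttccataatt
Tfrc, 3' untranslated region, chr16:32631598-32631626, plus strand: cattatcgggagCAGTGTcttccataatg
Tfrc, 3' untranslated region, chr16:32631663-32631691, plus strand: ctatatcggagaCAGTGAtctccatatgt
Tfrc, 3' untranslated region, chr16:32631710-32631738, plus strand: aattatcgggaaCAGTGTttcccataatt

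The ferritin elements had 26 of 29 bases in common, while that of Slc40a1 had 13 in common with each of them. The 3 genes with a match in the 5' untranslated region all rose, by 0.70 (Fth1), 0.55 (Ftl1) and 1.24 (Slc40a1) on the log2 scale, and Tfrc, with 4 matches in its 3' untranslated region, fell. Of 13 tested genes with a 5' match, 4 were higher (these 3 and a copy of Ftl1) and 2 were lower with DI. Of 32 tested genes with a 3' match, 4 were higher and 5 lower, beside 7.14% higher and 7.7% lower of all tested genes. Such a match was present in the 5' untranslated region of 0.0776% and in the 3' untranslated region of 0.228% of the 21901 coding genes searched. The other 6 genes, Slc11a2 among them, held no match to these letters and this pairing. A hairpin of another form, such as one with an unpaired base in the stem, would have been missed. The lack of a match therefore says nothing about binding to their messages. The counts measure RNA, and ferritin or receptor protein was not measured here. The element was in 4 of 5 annotated coding transcripts of Fth1, 1 of 2 of Ftl1, 1 of 4 of Slc40a1 and 1 of 3 of Tfrc, and the counts per gene do not tell these apart.

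RefSeq promoter windows (GRCm38.p6, 250 bases before to 50 after a start) were at hand for 6 of the 10 genes. The letters TGACNNNGC, the core of the antioxidant response element bound by NRF2, were looked for on both strands. They occurred in 1 of the 6 (Blvra, 1 match), and in 14.0% of the 27025 genes with a window. Hmox1, Slc40a1, Slc48a1 and Slc11a2 had no window to search. Sites farther from a start lay outside the windows, so a gene without a match here may still have the element elsewhere.

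Comparing genes with each other requires levels per length. The deposited FPKM divide by lengths that exceed the span of the locus for 6.46% of the 12437 genes with at least 10 counts on average. For Ftl1 the length was 2826 bases in a locus of 1941, whereas for Fth1 it was 866. Levels per length were therefore taken as CPM per kilobase of the principal transcript (968 bases for Ftl1 and 929 for Fth1). On that scale the order with DMSO was Fth1 (11885 ± 890), Ftl1 (7680 ± 208), Hmox1 (340 ± 29.7), Slc48a1 (185 ± 6.04), Blvrb (168 ± 8.47), Blvra (63.1 ± 3.62), Tfrc (42.7 ± 1.47), Slc11a2 (38.2 ± 2.65), Slc40a1 (23.8 ± 0.406) and Ireb2 (20.4 ± 0.208), as mean ± SD of 2 libraries in CPM per kilobase. No neighbours in this order overlapped between libraries. With DI, Slc40a1 moved from place 9 to place 7, at 56.2 ± 2.87 CPM per kilobase, and Tfrc from place 7 to place 9, at 31.9 ± 1.81. Blvrb (311 ± 22.2) and Slc48a1 (292 ± 0.571) exchanged places, with libraries only just apart. The order depends on the lengths used. On the deposited FPKM, Slc48a1 stood above Blvrb in both groups (a mean FPKM of 242 against 111 with DI and 165 against 64.4 with DMSO), Slc40a1 was the lowest of the 10 genes with DMSO (7.72) and Tfrc the lowest with DI (15.6), and the libraries of Slc40a1 (16.3 and 17.6) and Slc11a2 (17.1 and 18.1) overlapped with DI.

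The ratio of Tfrc RNA to Slc40a1 RNA, in CPM per kilobase, was 1.77 and 1.81 in the DMSO libraries. With DI it was 0.565 and 0.569. The replicates of each group lay close together. The difference between the groups follows from the changes of Tfrc and Slc40a1 given above. The value of the ratio depends on the lengths used, so 1 has no set meaning, and movement of iron was not measured. On the deposited FPKM the same ratio was 2.87 and 2.94 with DMSO and 0.914 and 0.922 with DI. The ratio of Blvrb to Blvra was 2.64 and 2.67 with DMSO and 4.44 and 3.89 with DI, with no overlap. The ratio of light to heavy ferritin chain, Ftl1 to Fth1, was 0.695 and 0.602 with DMSO and 0.542 and 0.629 with DI, so the groups overlapped. With 2 libraries in each group a two-sided exact permutation test cannot give a p below 0.333, so the ratios are given as values.

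**Figure D3:**
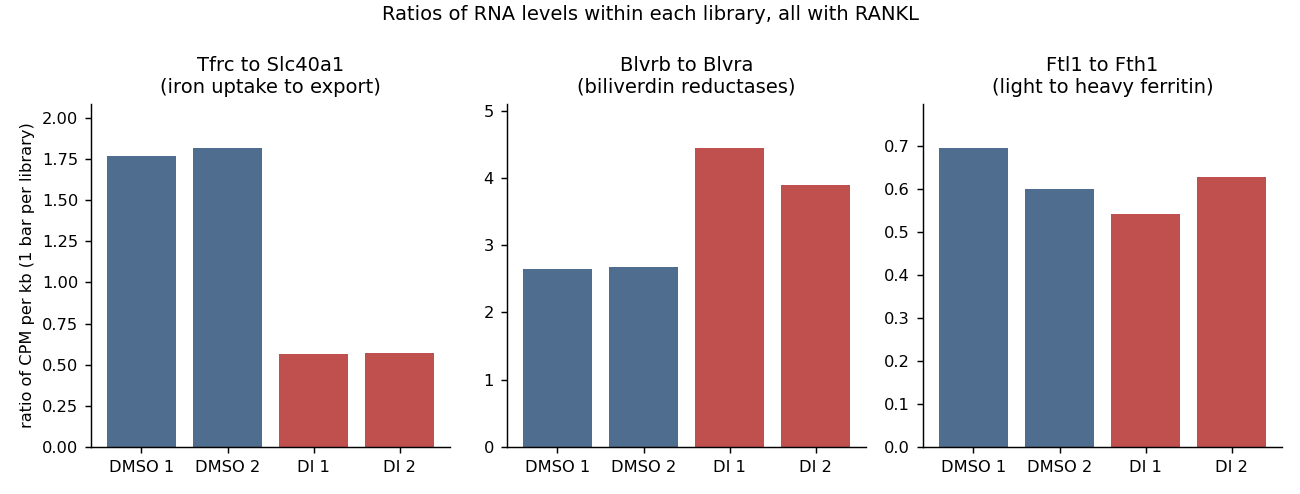
Ratio of 2 RNA levels within each library, in CPM per kilobase of the principal transcript, with 1 bar per library on linear axes from 0 (blue, RANKL+DMSO; red, RANKL+DI). Tfrc to Slc40a1 fell from 1.77 and 1.81 to 0.565 and 0.569, Blvrb to Blvra stood higher in both DI libraries, and Ftl1 to Fth1 ranged from 0.602 to 0.695 with DMSO and from 0.542 to 0.629 with DI.

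Further genes of heme and iron metabolism were read from lists by role. Of 74 further genes in 6 lists, 59 were tested, with a median log2 fold change of 0.045. Of these 59, 7 were called, all higher with DI (beside 14.8% of all tested genes, a share near their own). Scaling by library size only called a partly different set, 4 higher and 3 lower. The 3 lower genes (Urod, Hspa9 and Slc39a8) were not among the 7. In heme synthesis 1 of 8 tested genes passed. This was Alas1, the rate-limiting enzyme of heme synthesis outside red cells, which went from 321 ± 1.29 CPM to 533 ± 16.0 CPM (SD, n = 2 each) and so rose by 0.73 on the log2 scale (standard error 0.039, adjusted p = 5.40e-04, edgeR). The 7 other enzymes lay between -0.21 (Urod) and 0.19 (Fech) on the log2 scale, and Alas2, the red cell form, had at most 1 count in a library.

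Among genes of heme transport, binding and scavenging, 3 of 11 tested genes passed. Abcb6, a porphyrin transporter, rose by 0.54 (standard error 0.071), Pgrmc1, a heme-binding protein, by 0.28 (standard error 0.049) and Lrp1, the receptor of the heme-hemopexin complex, by 0.20 (standard error 0.041) on the log2 scale, with adjusted p-values of 0.00675, 0.0155 and 0.0267 (edgeR). Without DI replicate 1 or DMSO replicate 1, Pgrmc1 (adjusted p = 0.0525 and 0.0673) and Lrp1 (0.0896 and 0.0700) no longer passed, and Pgrmc1 did not without DMSO replicate 2 either (0.0510, edgeR). With library size only, Lrp1 was at 0.097 and Pgrmc1 at 0.18 on the log2 scale, and neither passed (adjusted p = 0.140 and 0.0516, edgeR). Among other genes of iron uptake, export and chaperoning, 2 of 10 passed, Trf (transferrin) at 0.36 and Mcoln1, a lysosomal cation channel, at 0.26 on the log2 scale (adjusted p = 0.0172 and 0.0440, edgeR). Mcoln1 did not pass with any 1 library left out (adjusted p = 0.0935 to 0.150, edgeR) or with library size only, where it was at 0.15 (adjusted p = 0.145, edgeR). With 1 library left out, Trf passed only without DI replicate 2 (0.0359, against 0.0580 to 0.0632 without each of the others). For Ncoa4, the receptor that carries ferritin to autophagy, the DI libraries held 248 and 1029 counts and the DMSO libraries 284 and 246, so 1 library set its mean. Its log2 fold change of 1.21 did not pass (adjusted p = 0.215, edgeR) and was 1.87 without DI replicate 1 (adjusted p = 1.16e-04, edgeR). None of the 4 further iron sensing genes and none of the 19 tested genes of mitochondrial iron and iron-sulfur cluster assembly passed by edgeR's quasi-likelihood test. At an unadjusted p under 0.05 there were 1 and 0, and edgeR's exact test called 1 and 0. DESeq2 and limma-voom called 0 in either list. With library size only, Hspa9 of the mitochondrial list was at -0.20 on the log2 scale and passed (adjusted p = 0.0331, edgeR). For Iscu, the scaffold of iron-sulfur cluster assembly, the DI libraries held 567 and 787 counts and the DMSO libraries 592 and 532. DI replicate 2 thus set most of its log2 fold change of 0.24, which was 0.40 without DI replicate 1. The medians of the lists were 0.17 and -0.058 on the log2 scale.

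Of 7 transcription factors that act on heme and iron genes, 1 passed. Mafg, the small MAF partner of NRF2 and BACH1, went from 128 ± 3.40 CPM to 173 ± 2.55 CPM (SD, n = 2 each), an increase of 0.44 on the log2 scale (standard error 0.044, adjusted p = 0.00298, edgeR). Nfe2l2 (NRF2) was at 0.072 (95% interval -0.017 to 0.16), Keap1 at 0.22 and Bach1, a repressor of Hmox1 and ferritin genes that is itself released by heme, at 0.17 (95% interval 0.038 to 0.31) on the log2 scale, and none of these 3 passed. Spic, a factor of iron-recycling macrophages, was counted 36 and 38 times in the DI libraries and 59 and 51 times in the DMSO libraries and did not pass either (adjusted p = 0.113, edgeR).

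**Figure D4:**
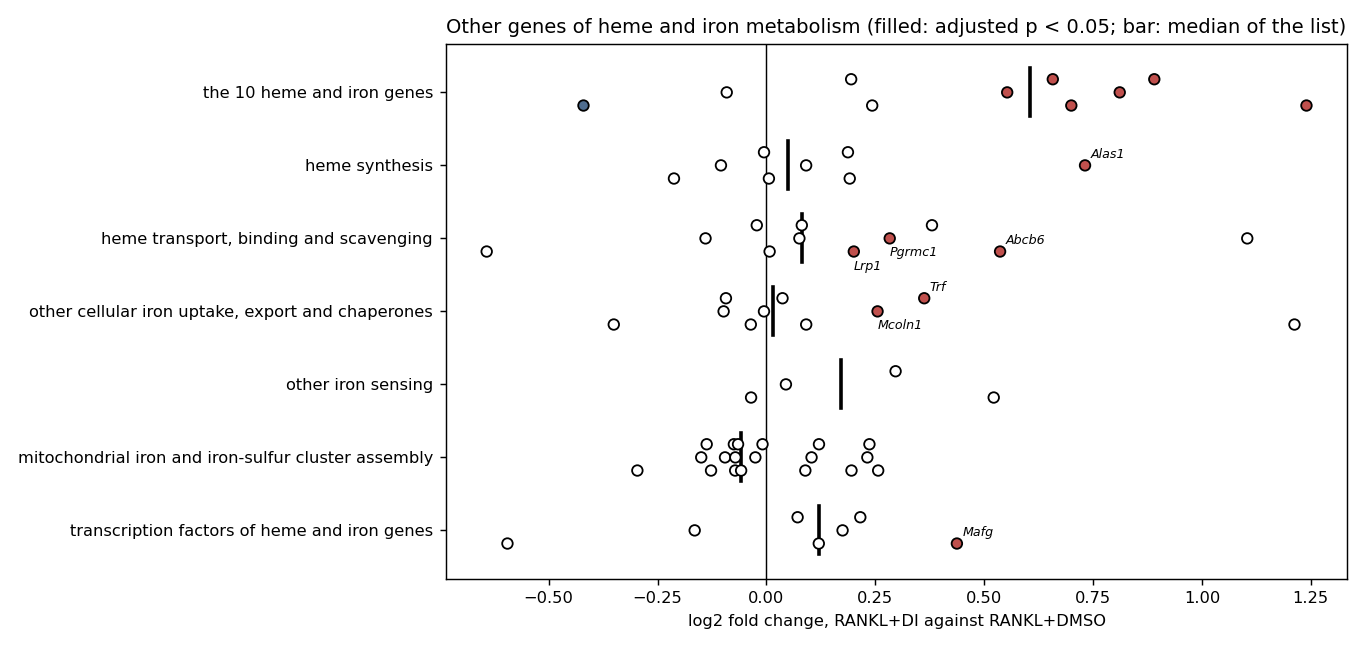
Log2 fold change of the 10 genes (top) and of the tested genes of 6 further lists, with filled points for an adjusted p under 0.05 (red higher, blue lower with DI) and a bar at the median of each list. The 10 genes have a median of 0.61, and in the other lists the 7 filled points are Alas1, Abcb6, Pgrmc1, Lrp1, Trf, Mcoln1 and Mafg.

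Each of the 7 called genes kept its direction and its call with any 1 library left out and under every other test, filter and scaling run. Over these alternatives the log2 fold change lay between 0.55 and 0.69 for Slc48a1, between 0.78 and 0.96 for Blvrb, between 0.45 and 0.59 for Ftl1 and between 0.60 and 0.78 for Fth1.

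**Figure D5:**
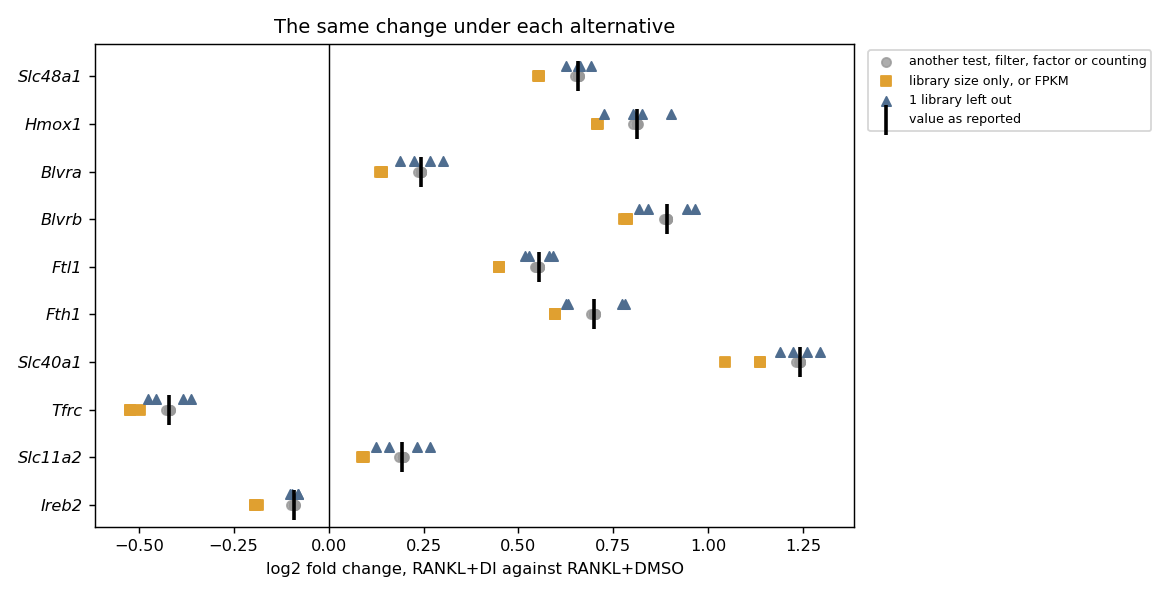
Log2 fold change of each gene as reported (black bar) and under each alternative: another test, filter, factor or counting (grey circles), library size only or FPKM (orange squares) and 1 library left out (blue triangles). The symbols of each gene stay on the same side of 0, and the orange squares lie lowest for all 10 genes, at settings that put the median of all tested genes at -0.10 (library size only) and at -0.10 and -0.068 (FPKM).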

How the data were processed

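The authors deposited raw read counts per gene for each library and FPKM values per gene, and a second table with the same columns and added gene annotation was not used here. The submitters' processing notes name the builds GRCm38 and mm10, and the aligner, counter and annotation release are not given in the sources used here. Of 34745 identifiers, 34267 were found in GENCODE M21, all on the same chromosome and 80.8% with the same start and end, so that transcripts and positions taken from it may differ from those the authors counted. No row lacked a gene name. The deposited FPKM of the authors were used for ratios, for a second order of levels between genes and in 2 alternative limma fits only. Counts were fitted in R 4.3.3 with edgeR 4.0.16 (TMM, default filter on low counts, quasi-likelihood F test, group as the only term, 2 residual degrees of freedom) over all 12590 tested genes, with Benjamini-Hochberg adjustment. Standard errors come from the log2 fold change and F. The same steps were tested on simulated counts drawn with the fitted dispersion trend, without a spread of its own for each gene. That does not show how far the calls hold in these data. Replicates differed by more than sampling noise (chi-square per degree of freedom 7.97 and 8.14). Strand use in counting is not stated. Copies were sought with BLAST+ 2.17.0 (identity at least 95% over at least 20% of the transcript). Principal transcripts were those tagged so by GENCODE M21 with support level 1.

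The genes and lists were chosen with earlier results of these data known. The text names the 10 genes and, of each further list, called genes only, at most 3 in each direction. Genes named outside that rule (Hmox2, Ncoa4, Flvcr1, Hspa9, Slc39a8, Iscu, Gm10116, the overlapping genes, Urod, Fech, Alas2, Nfe2l2, Keap1, Bach1, Spic, the marker genes and those with an iron-responsive element) were chosen after their values were seen. Alternatives were DESeq2 1.42.0 (size factors and Wald test), limma 3.58.1 (voom, and log2(FPKM + 0.01) or log2(FPKM + 1)), upper quartile factors, library size only, no filter, at least 10 counts in every library, edgeR's exact test, the replicate number as a block, pseudogene counts added and each library left out. Adding the retrogene copy of Ftl1 and using principal transcript lengths were chosen after seeing the data.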

Additional observations from a re-analysis of the deposited data

How the results depend on the processing

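Slc48a1, Hmox1, Blvrb, Ftl1, Fth1, Slc40a1 and Tfrc kept their direction and their call under every alternative run, with each library left out as well, and Slc11a2 passed under none. The log2 fold change of Slc40a1 ranged from 1.04 to 1.29, that of Hmox1 from 0.71 to 0.90 and that of Tfrc from -0.52 to -0.36. Blvra passed with no filter, with at least 10 counts in every library and with limma-voom (adjusted p = 0.0434, 0.0494 and 0.0466), and Ireb2 with library size only and on both FPKM scales (adjusted p = 0.0316, 0.0416 and 0.0396). With the retrogene copy added, Ftl1 was at 0.55.

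Library size only split the calls among all genes into 548 higher and 1932 lower. The split was 529 and 1674 with log2(FPKM + 0.01) and 536 and 1674 with log2(FPKM + 1). In the further lists, library size only called a partly different set of 7 genes, 4 higher and 3 lower. The 3 lower genes (Urod, Hspa9 and Slc39a8) were not called with TMM, and Pgrmc1, Lrp1 and Mcoln1 were no longer called. In these lists log2(FPKM + 0.01) called 5 higher and 3 lower, and log2(FPKM + 1) called 5 higher and 4 lower. Leaving out 1 library gave 1087 to 1394 calls among all genes (1120 without DMSO replicate 1 and 1087 without DMSO replicate 2, against 1868) and 4 to 6 in the further lists (4 without either DMSO library). The lone sample of an arm was then taken to vary like the others, and fewer libraries leave fewer degrees of freedom. Alas1, Abcb6 and Mafg were called in 15 of 15 alternatives, Trf in 12, Pgrmc1 in 11, Lrp1 in 8 and Mcoln1 in 5. On principal transcript lengths, in place of deposited FPKM, the mean ratio of Ftl1 to Fth1 was 0.586 with DI and 0.649 with DMSO (0.187 and 0.207 on FPKM), and that of Tfrc to Slc40a1 was 0.567 and 1.79 (0.918 and 2.90 on FPKM). The replicate numbers are shared between the groups without a stated pairing, and same-numbered samples did not deviate together (r = -0.030 over 12590 genes between the replicate differences of the groups). The fit with the replicate block gave 1389 calls among all genes, 7 of the 10 genes and 5 in the further lists, and the cause of the lower counts was not tested.

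The 10 genes had 1170 counts or more in every library. The floor of 3 counts for a single gene corresponds to 0.160 to 0.180 CPM. The 12 erythroid markers summed together lay between 0.160 and 0.300 CPM.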

Other observations

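The search for iron-responsive elements, made after the values of the 10 genes were seen, also returned other genes. Of 17 genes with a match in a 5' untranslated region, 13 were tested, 4 were higher with DI (Fth1, Ftl1, its copy Ftl1-ps1 and Slc40a1) and 2 were lower. The lower genes were Nasp, a histone chaperone, at -0.34 and Pdgfa, a growth factor, at -0.59 on the log2 scale (adjusted p = 0.0183 and 0.0267, edgeR). The median of the 13 was 0.12. Of 50 genes with a match in a 3' untranslated region, 32 were tested, 4 were higher and 5 lower, with a median of -0.0046. Of all tested genes, 7.14% were higher and 7.7% lower, and no test of the difference was made. A match to letters and pairing is not a bound site.

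Flvcr1, a heme exporter listed under its older symbol Mfsd7b, was counted 1090 and 1144 times in the DI libraries and 923 and 2418 times in the DMSO libraries. Its log2 fold change of -0.64 had a 95% interval of -1.74 to 0.45 and did not pass (adjusted p = 0.396, edgeR), and without DMSO replicate 1 it was -1.22 and passed (adjusted p = 0.00165, edgeR). Like Ncoa4, Hmox2 and Iscu it was set mainly by 1 library, which was DMSO replicate 2 here and DI replicate 2 for the other genes.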
